A study of Mus musculus with 12 samples.

Results

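The genes described here encode the nuclear-encoded subunits of the mitochondrial respiratory chain and of ATP synthase, together with cytochrome c. They were taken from the deposited expression table by symbol: all rows whose symbol began with Ndufa, Ndufb, Ndufc, Ndufs, Ndufv, Uqcr, Cox4i, Cox5, Cox6, Cox7, Cox8 or Atp5, plus Sdha to Sdhd, Cyc1 and Cycs. Assembly factors named Ndufaf, the muscle-type subunit gene Cox6a2 and the row Ndufb1-ps were dropped by name, and a mean value of at least 50 over the 12 libraries was required. Of 97 rows that matched, 10 were dropped by name and 7 missed the minimum, which left 80 genes of the 21885 in the table. They were 36 genes of complex I, 4 of complex II, 9 of complex III, 13 of complex IV, 17 of complex V and Cycs. The mean nearest above the minimum was that of Cox7a1 (112.0), and the nearest below were those of Cox6b2 (31.5) and Cox4i2 (15.2).

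Transcript levels came from RNA-seq of 12 mouse libraries, 4 per group, made from sorted cells with the full-length SMART-Seq v4 kit. Pax5 KO libraries came from Pax5-/- fetal livers, which lack Pax5, and were sorted as CLP/pre-pro-B cells, that is common lymphoid progenitors and the first B-lineage stage after them. Pax5 WT libraries came from Pax5+/+ fetal livers and were sorted as the later stages pro-B/pre-BI. The P80R B-ALL libraries held GFP-positive cells of B-cell acute lymphoblastic leukaemia driven by the PAX5 P80R mutant, from primary recipients 1300, 1301, 1302 and 1308. The study set the leukaemias against both fetal liver populations. Pax5 KO and Pax5 WT differ in genotype and in the stage that was sorted, and these cannot be told apart. How the mutant was delivered, which cells first carried it, the tissue the leukaemias were taken from, and the strain and age of the animals were not stated in the sources used here. No label says that the 4 libraries of a fetal liver group came from separate animals, so p-values measure the spread between libraries, which may be technical.

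The respiratory chain passes electrons from NADH (at complex I) and from succinate (at complex II) through ubiquinone to complex III, on to cytochrome c, and at complex IV to oxygen. Complexes I, III and IV pump protons across the inner mitochondrial membrane, and complex V, the ATP synthase, uses their return to make ATP. Complexes I, III, IV and V also hold subunits encoded in mitochondrial DNA, while every subunit of complex II is encoded in the nucleus. Within complex I a few core subunits carry the redox centres or are conserved from bacteria, and the many small accessory subunits surround them. In complex III, Cyc1, Uqcrfs1, Uqcrc1 and Uqcrc2 were counted here as core and the remaining genes as accessory. Of these core genes, Cyc1 and Uqcrfs1 encode subunits with redox centres.

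Each Pax5 KO library held 36871775 to 43513852 counted reads. The range was 33191950 to 39465256 for Pax5 WT and lower for P80R B-ALL, at 24914250 to 29386256. Values are read counts that the authors divided by 1 factor per library. The 80 genes took 2.39% to 3.33% of all reads in the leukaemias, 2.10% to 2.25% in Pax5 KO and 2.16% to 2.65% in Pax5 WT. The targeted gene followed the labels of the fetal liver groups: Pax5 was at 6194 to 7316 in Pax5 WT and 229.9 to 267 in Pax5 KO. In the leukaemias it was at 255 to 1316, with recipient 1308, at 255, within the Pax5 KO range. The summed value of 9 pro-B markers was 235709 to 281036 in Pax5 WT, 32526 to 33607 in Pax5 KO and 71918 to 133950 in the leukaemias, which lay between the fetal liver groups. Markers of other cells stood apart in the same libraries. The summed value of 9 erythroid genes was 414455, 38934, 32730 and 1070528 in recipients 1300, 1301, 1302 and 1308, against 175 to 227 in Pax5 KO and 97 to 181 in Pax5 WT, where Slc4a1 and Hba-a2 were at 0 in every library. The sum of 11 granulocyte and monocyte genes was 163715, 13767, 5002 and 272413 in the same recipients, 9387 to 10224 in Pax5 KO and 573 to 821 in Pax5 WT. The sum of 8 macrophage genes was 5017 to 33988 in the leukaemias, 2021 to 2300 in Pax5 KO and 32 to 82 in Pax5 WT. In bulk RNA, fewer cells of a type and less RNA per cell cannot be told apart. The share of such cells in the results below was not tested, and the counts over all 80 genes are also given without recipients 1300 and 1308, the libraries with the highest erythroid and granulocyte sums.

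By the deposited values, before the correction for length described below, most of the 80 genes were lowest in Pax5 KO and highest in P80R B-ALL. The group means ran in the order Pax5 KO, Pax5 WT, P80R B-ALL from low to high for 57 genes, and Pax5 KO had the lowest mean for 68. These orders were not counted over all genes tested, so no share of all genes stands beside them. In Pax5 KO against Pax5 WT, 54 genes were lower (29.1% of all 12200 genes tested were lower) and 3 were higher (35.7% of all genes were higher), by limma with a Benjamini-Hochberg adjusted p under 0.05. The median log2 difference was -0.26 for the 80 genes and 0.06 for all genes. A limma fit on all 12 libraries, in which the leukaemias share in the estimate of the spread, called 15 lower (14.3% of all genes) and 0 higher (20.1% of all genes) in this comparison, with 27 lower and 1 higher at an unadjusted p under 0.05, while edgeR and DESeq2 on the 8 libraries each called 2 higher. In P80R B-ALL against Pax5 WT, 26 genes were higher, against 21% of all genes, and 3 were lower, against 18.9% of all genes. The median log2 difference was 0.36 for the 80 genes and 0.00 for all genes. In P80R B-ALL against Pax5 KO, 50 genes were higher (17.6% of all genes) and 2 were lower (20.8% of all genes), with medians of 0.65 and -0.11. The comparisons share libraries, so their counts are given side by side and are not independent. Without recipients 1300 and 1308, P80R B-ALL had 17 higher and 3 lower genes against Pax5 WT (22.5% and 20.9% of all genes, median log2 difference of the 80 genes 0.35), and 50 higher and 2 lower against Pax5 KO (21.2% and 27.8% of all genes, median 0.63).

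**Figure D1:**
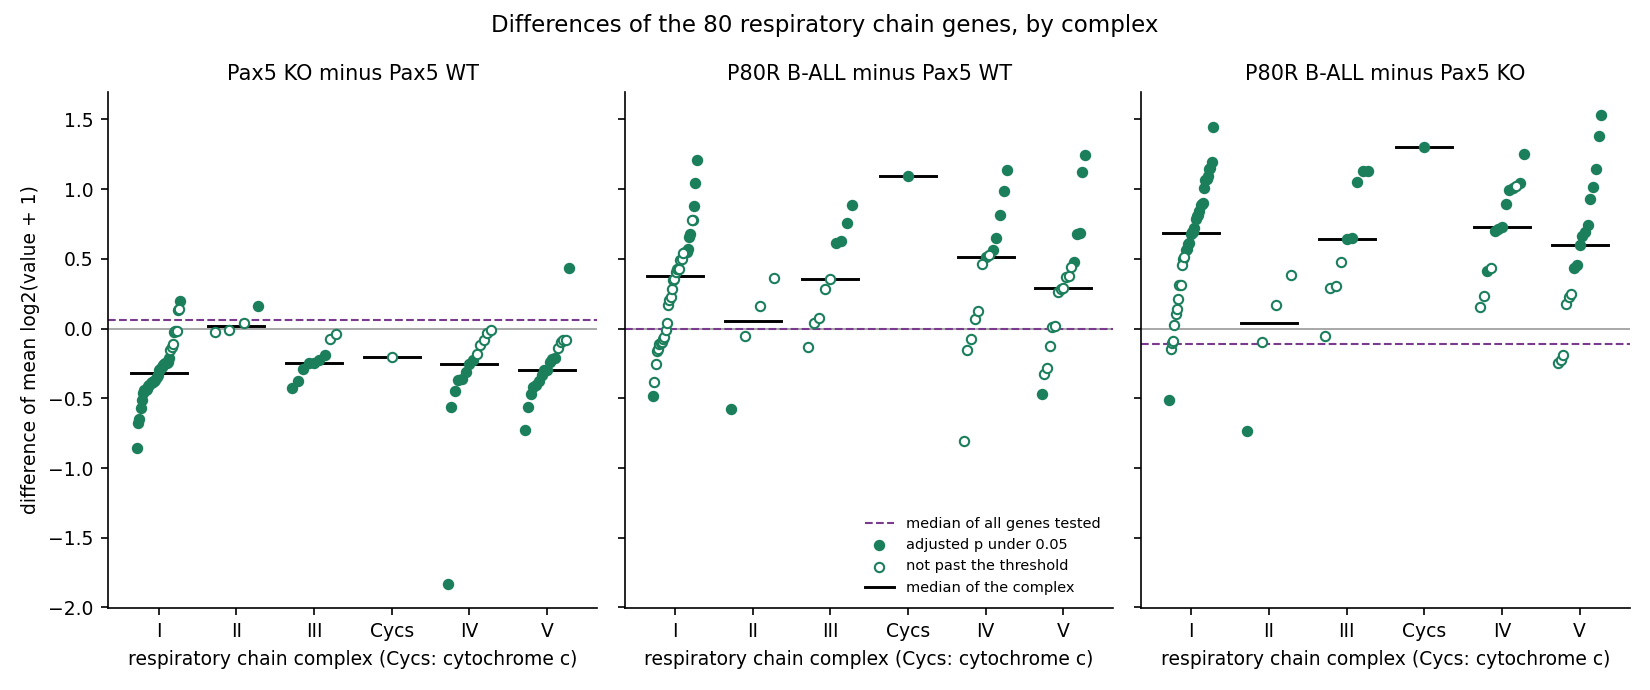
Difference of group means of log2(value + 1) for each of the 80 genes (points), by complex, in the 3 comparisons. Filled points passed the limma threshold, short black lines are medians of a complex, and the dashed line is the median of all genes tested. Most points of complexes I, III, IV and V lie below 0 in the left panel and above 0 in the right panel, and the medians of complex II lie at 0.02, 0.05 and 0.04.

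The length of the transcripts moved with these differences. The respiratory chain genes are short, with a median transcript length of 760.5 bases against 2551 bases over all genes tested, and 51 of the 80 have transcripts of at most 1000 bases. Among the 1142 other genes of that length, 37.7% were higher in P80R B-ALL than in Pax5 WT, next to 39.2% of the 51 respiratory chain genes. In the comparison with Pax5 KO the shares were 41.7% of the other short genes and 78.4% of the respiratory chain genes. In Pax5 KO against Pax5 WT, 39.3% of the other short genes and 80.4% of the short respiratory chain genes were lower. After the trend with transcript length was taken out of each library, an alternative chosen after the relation was seen, 11 genes were higher and 12 lower in P80R B-ALL against Pax5 WT (median log2 difference 0.01), next to 21.1% higher and 18.7% lower of the 12189 genes in that fit. Against Pax5 KO, 22 were higher and 7 lower (median 0.17), next to 16.4% and 14.9% of all genes. In Pax5 KO against Pax5 WT, 8 were higher and 46 lower (median -0.15), next to 33.5% and 33.3% of all genes. Against Pax5 WT, the leukaemias thus had no larger share of the 80 genes called in either direction than of all genes. This correction moved the counts of higher genes in the leukaemias by over 1.5 times and the count of lower genes in Pax5 KO by less. Values from it are given below as length-corrected differences or counts.

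**Figure D2:**
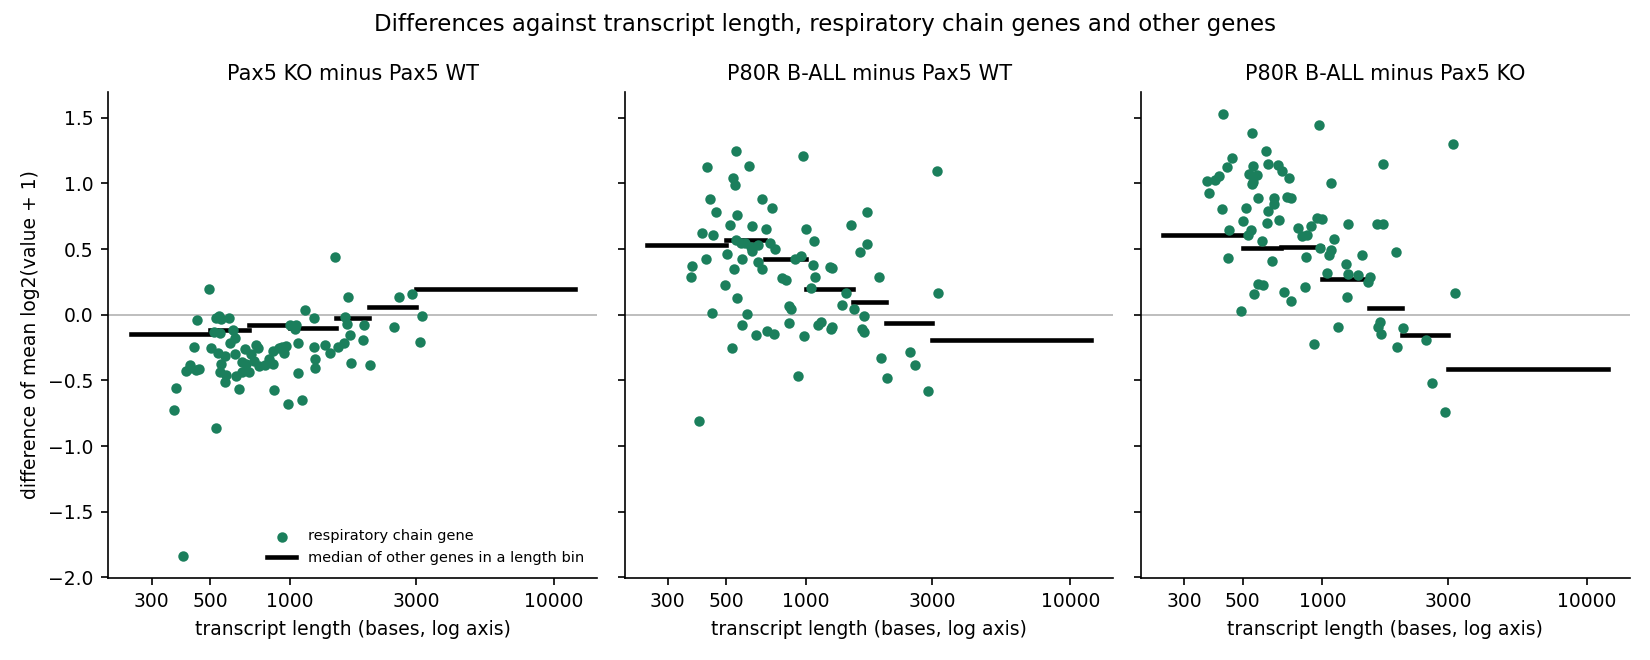
Difference of group means of log2(value + 1) against transcript length on a log axis, in the 3 comparisons. Points are the 80 respiratory chain genes and black bars are medians of all other tested genes in 7 bins of length, of which the first and last are drawn shortened. In the right panel the medians of other genes run from 0.60 in the shortest bin to -0.41 above 3000 bases, and most respiratory chain genes lie at the short end.

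The promoters of 65 of the 80 genes were found in RefSeq (GRCm38.p6), as windows of 250 bases before and 50 after the start. They were searched on both strands for a motif of NRF1 (the letters GCGC, any base, TGCGC), a core of ETS factors such as GABPA (CCGGAAG) and a motif of YY1 (AAGATGGC), which are known regulators of respiratory genes. For the 65 genes the window nearest the GENCODE start was taken, and for other genes the first window by position. The other genes also include those too low to be tested for expression. What part these 2 unlike choices have in the shares below was not tested. The NRF1 letters were in 16 of the 65 windows (24.6%) and in 6.62% of the windows of 16440 other genes in the table. The ETS letters were in 15 windows (23.1%, against 12.2%) and the YY1 letters in 8 (12.3%, against 3.24%), of which 7 were genes of complex I, which supplied 32 of the 65 windows. In all, 34 windows held an exact match to at least 1 of the motifs and 31 held no exact match. The stretches below are shown for 4 genes described in the next paragraphs, chosen after their values were seen because they differed in opposite directions: Ndufb4 and Cycs (higher in P80R B-ALL), Sdha (lower in P80R B-ALL) and Ndufs5 (lower in Pax5 KO). Each has 120 bases on the minus strand, 5′ to 3′, and ends before the more upstream of the RefSeq and GENCODE starts, with matches to the NRF1 motif on either strand in capitals.
Ndufb4, chr16:37654454-37654573: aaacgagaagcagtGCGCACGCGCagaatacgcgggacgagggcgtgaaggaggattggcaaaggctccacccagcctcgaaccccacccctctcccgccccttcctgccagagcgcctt
Sdha, chr13:74350281-74350400: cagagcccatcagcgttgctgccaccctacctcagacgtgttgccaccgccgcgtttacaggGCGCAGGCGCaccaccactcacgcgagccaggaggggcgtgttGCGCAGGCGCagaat
Ndufs5, chr4:123718203-123718322: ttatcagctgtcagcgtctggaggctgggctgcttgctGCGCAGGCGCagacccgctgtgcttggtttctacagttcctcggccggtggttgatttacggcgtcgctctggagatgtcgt
Cycs, chr6:50566570-50566689: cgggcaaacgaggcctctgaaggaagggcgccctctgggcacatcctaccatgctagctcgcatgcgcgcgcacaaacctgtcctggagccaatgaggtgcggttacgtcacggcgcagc
The stretch of Sdha holds 2 matches and those of Ndufb4 and Ndufs5 hold 1 each. The whole windows of Sdha and Ndufb4 hold 3 each, and that of Ndufs5 holds 1. The Cycs stretch holds no exact match to any of the 3 motifs. Its letters tcgcatgcgc differ from the NRF1 motif only in the first base, and only exact matches were counted. Whether the NRF1 letters have a part in the differences of these genes was not tested. A match is a description of the sequence and not a site of binding, and no binding was measured.

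Complex I, the NADH dehydrogenase, had 27 of its 36 genes lower in Pax5 KO than in Pax5 WT and 1 higher, with a median log2 difference of -0.32. In P80R B-ALL, 10 were higher and 1 lower against Pax5 WT (median 0.38), and 24 were higher and 1 lower against Pax5 KO (median 0.68). The length-corrected counts in P80R B-ALL were 4 higher and 3 lower against Pax5 WT, and 11 higher and 2 lower against Pax5 KO. In Pax5 KO against Pax5 WT they were 4 higher and 22 lower. Counts by complex stand beside the shares of all genes called. These were 35.7% higher and 29.1% lower in Pax5 KO against Pax5 WT, and 21% and 18.9% in P80R B-ALL against Pax5 WT. Against Pax5 KO they were 17.6% and 20.8%. After length correction they were 33.5% and 33.3%, 21.1% and 18.7%, and 16.4% and 14.9%. Most of the 36 genes encode accessory subunits. Of 29 accessory genes, 25 were lower in Pax5 KO than in Pax5 WT, and 23 were higher in P80R B-ALL than in Pax5 KO (median 0.79), of which 10 were called higher after correction for length. Of the 7 core genes, 2 were lower in Pax5 KO, none was called in P80R B-ALL against Pax5 WT, and 1 was higher and 1 lower against Pax5 KO (median 0.11). The classes also differ in transcript length, with medians of 704 bases for the accessory and 1623 bases for the core genes.

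Among the core genes, Ndufs8, an iron-sulphur subunit of the arm that carries electrons from NADH towards ubiquinone, was at 4327, 4290.5, 4337 and 4778 in libraries 1 to 4 of Pax5 KO, against 6493, 7013, 7018 and 7862 in those of Pax5 WT. The groups did not overlap, and the log2 difference was -0.68 ± 0.07 (SE, limma, adjusted p = 2.9e-06). Ndufs7, another iron-sulphur subunit, was lower by a smaller margin in Pax5 KO (-0.25 ± 0.08, adjusted p = 0.017, length-corrected -0.12 and not called). Ndufv2, part of the module that takes electrons from NADH, was at 14939, 26643, 14786 and 14648 in recipients 1300, 1301, 1302 and 1308 and at 10414 to 11073 in Pax5 KO. It was higher in P80R B-ALL than in Pax5 KO (0.69 ± 0.20, limma, adjusted p = 0.023), with recipient 1301 far above the other 3. Ndufs1, the largest iron-sulphur subunit, went the other way: it was at 4673, 5588, 5127 and 3768 in the leukaemias and at 6716, 7112, 7005 and 6297 in Pax5 KO. All 4 leukaemia libraries lay below all Pax5 KO libraries (-0.52 ± 0.14, limma, adjusted p = 0.02), and the length-corrected difference of -0.39 did not pass the threshold (adjusted p = 0.075). Ndufs3 and Ndufv1, which also belong to the peripheral arm, passed the threshold in none of the 3 comparisons, with log2 differences between -0.15 and 0.32.

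Among the accessory genes, Ndufb4 (ENSMUSG00000022820), a small subunit of the membrane arm, was at 7986, 9271, 5207 and 6292 in the 4 recipients, against 2975, 2659, 2936 and 3681 in Pax5 WT and 2590.1, 2419, 2684 and 2606 in Pax5 KO. Every leukaemia library was above every fetal liver library. The log2 difference was 1.21 ± 0.20 against Pax5 WT (limma, adjusted p = 0.0013) and 1.45 ± 0.18 against Pax5 KO (adjusted p = 0.00072), the highest values in complex I in both comparisons. Corrected for length they were 0.90 and 1.02, still past the threshold. Ndufa7 was also higher in P80R B-ALL than in both fetal liver groups, at 8635, 12542, 7572 and 9706 against 4154 to 5409 and 4275 to 4630.3, and Ndufs4, an accessory subunit needed for full complex I activity, chosen here after its values were seen, showed 8332, 9263, 5632 and 7062 against 3905 to 4952 in Pax5 WT and 3245 to 3439.7 in Pax5 KO. For Ndufs4 the log2 difference passed the threshold against Pax5 KO (1.15 ± 0.16, limma, adjusted p = 0.0012) and was 0.78 ± 0.17 against Pax5 WT (adjusted p = 0.0062). Its transcript of 1698 bases is long for this group of genes, and its length-corrected differences were 1.04 and 0.71.

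Ndufs5 (ENSMUSG00000028648), an accessory subunit on the intermembrane face, showed the largest fall of complex I in Pax5 KO. It was at 2736, 2515, 2647 and 2688 in Pax5 KO, 4319, 4479, 4748 and 5769.8 in Pax5 WT and 3237, 5373, 3663 and 4129 in the 4 recipients. Pax5 KO lay below both other groups without overlap, and the leukaemias spanned the range from near Pax5 KO to within Pax5 WT. The log2 difference of Pax5 KO from Pax5 WT was -0.86 ± 0.08 (limma, adjusted p = 2.7e-06), and that of P80R B-ALL from Pax5 KO was 0.61 ± 0.16 (adjusted p = 0.018), which was -0.01 and not called after correction for length. Ndufb2, a small membrane arm subunit, had the complex I difference from Pax5 KO next to that of Ndufb4: it was at 2765, 4806, 1826 and 2033 in the recipients and 1120.4 to 1205 in Pax5 KO (1.20 ± 0.27, limma, adjusted p = 0.0097), and 0.55 was not called after correction. Ndufa10 was lower than Pax5 WT in both other groups, at 6624, 7404, 7038 and 8138 in Pax5 WT, 5369, 6097, 5411 and 5529 in Pax5 KO and 4896, 5393, 5983 and 4648 in P80R B-ALL. The differences from Pax5 WT were -0.38 ± 0.07 for Pax5 KO and -0.48 ± 0.13 for P80R B-ALL (limma, adjusted p = 0.00056 and 0.017). Ndufv3 was the complex I gene that was higher in Pax5 KO (0.20 ± 0.08, limma, adjusted p = 0.037), although Pax5 WT library 4, at 3841, lay within the Pax5 KO range of 3604 to 4122. Ndufb1-ps, the row that the name rule drops, held 6757 to 7845 in Pax5 KO and 9672 to 13478 in Pax5 WT, and at 11428 to 24072 in the leukaemias, the same order of groups as most accessory genes.

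Complex II, succinate dehydrogenase, which also works in the tricarboxylic acid cycle, had none of its 4 genes called lower in Pax5 KO or higher in P80R B-ALL. Sdha (ENSMUSG00000021577), its flavoprotein, was at 19674, 22231, 21564 and 21382 in Pax5 KO, 19107, 18732, 18119 and 20021 in Pax5 WT and 11216, 13449, 15483 and 11157 in the 4 recipients. The leukaemias lay below every fetal liver library, and Sdha was the only one of the 80 genes called lower in P80R B-ALL than in both other groups. The log2 differences were -0.58 ± 0.14 against Pax5 WT (limma, adjusted p = 0.0093) and -0.74 ± 0.14 against Pax5 KO (adjusted p = 0.0038), and after correction for length -0.48 and -0.55, both past the threshold. Pax5 KO and Pax5 WT overlapped for Sdha, and the small excess in Pax5 KO (0.16 ± 0.06, adjusted p = 0.025) was 0.07 and not called after correction. Sdhb, the iron-sulphur subunit, and the membrane anchors Sdhc and Sdhd passed the threshold in none of the comparisons. Sdhd was nevertheless higher in every leukaemia (15148 to 30277) than in every Pax5 KO library (13457 to 14788). The transcripts of complex II are long for these genes, with a median of 2065.5 bases and none of at most 1000 bases. The core genes of complexes I and III were likewise mostly not called in P80R B-ALL. Sdhb was at 8229, 15287, 13095 and 16492 in the recipients and 12237 to 15188 in Pax5 WT, so the leukaemias spread over a wider range than Pax5 WT on both sides.

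Complex III, the cytochrome bc1 complex, had 7 of 9 genes lower in Pax5 KO than in Pax5 WT, and 6 after correction for length, with none higher. In P80R B-ALL, 4 were higher than in Pax5 WT and 5 higher than in Pax5 KO, and none was lower. The 5 accessory genes (Uqcr10, Uqcr11, Uqcrb, Uqcrh and Uqcrq) were all higher in P80R B-ALL than in Pax5 KO, with a median log2 difference of 1.05, and none of the 4 core genes was called (median 0.30). After correction for length 3 of the 5 were still called (Uqcr10, Uqcrh and Uqcrq), and Uqcr11 (-0.01) and Uqcrb (0.03) were not. Against Pax5 WT 1 of the 4 was still called. All 5 accessory transcripts are at most 547 bases long and all 4 core transcripts are at least 1363 bases. Uqcrh, the hinge subunit that contacts cytochrome c1, was at 17530.0, 15513, 9638 and 12328 in the recipients, 7273, 7470.3, 7701 and 9447 in Pax5 WT and 6155, 5727, 5819.6 and 6805 in Pax5 KO. The 3 groups did not overlap, and the difference of P80R B-ALL from Pax5 KO was 1.13 ± 0.19 (limma, adjusted p = 0.0024, length-corrected 0.53). Against Pax5 WT it was 0.76 ± 0.19 (adjusted p = 0.013), and the length-corrected 0.31 was not called. Uqcr10, another small subunit, was higher than in both fetal liver groups also after that correction (0.88 and 1.13, length-corrected 0.39 and 0.47). Of the core genes, Cyc1 (cytochrome c1), Uqcrfs1 (the Rieske iron-sulphur protein) and Uqcrc2 were lower in Pax5 KO by 0.25, 0.23 and 0.19 on the log2 scale (limma, adjusted p = 0.0067, 0.0087 and 0.025). Uqcrc1 was called in none of the comparisons.

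Cycs (ENSMUSG00000063694), the somatic cytochrome c that carries electrons from complex III to complex IV and also takes part in apoptosis, had the largest length-corrected rise among the 80 genes in P80R B-ALL. It was at 12475, 11307, 10969 and 9066 in recipients 1300, 1301, 1302 and 1308, at 4537, 4897, 4951 and 6089.8 in Pax5 WT and at 4148, 4139, 4581 and 4819 in Pax5 KO. All 4 leukaemias were above all fetal liver libraries, and the fetal liver groups overlapped. The log2 difference was 1.10 ± 0.15 against Pax5 WT (limma, adjusted p = 0.00049) and 1.30 ± 0.13 against Pax5 KO (adjusted p = 0.00031). Its transcript has 3123 bases, longer than the median of all genes tested, and correction for length moved the differences up to 1.22 and 1.53. The annotation lists pseudogenes under the name of Cycs, as it does for Ndufab1, Uqcrh, Atp5c1, Atp5k and Atp5l, and the sources used here do not say how reads shared with such copies were counted, so the values of these 6 genes are uncertain.

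**Figure D3:**
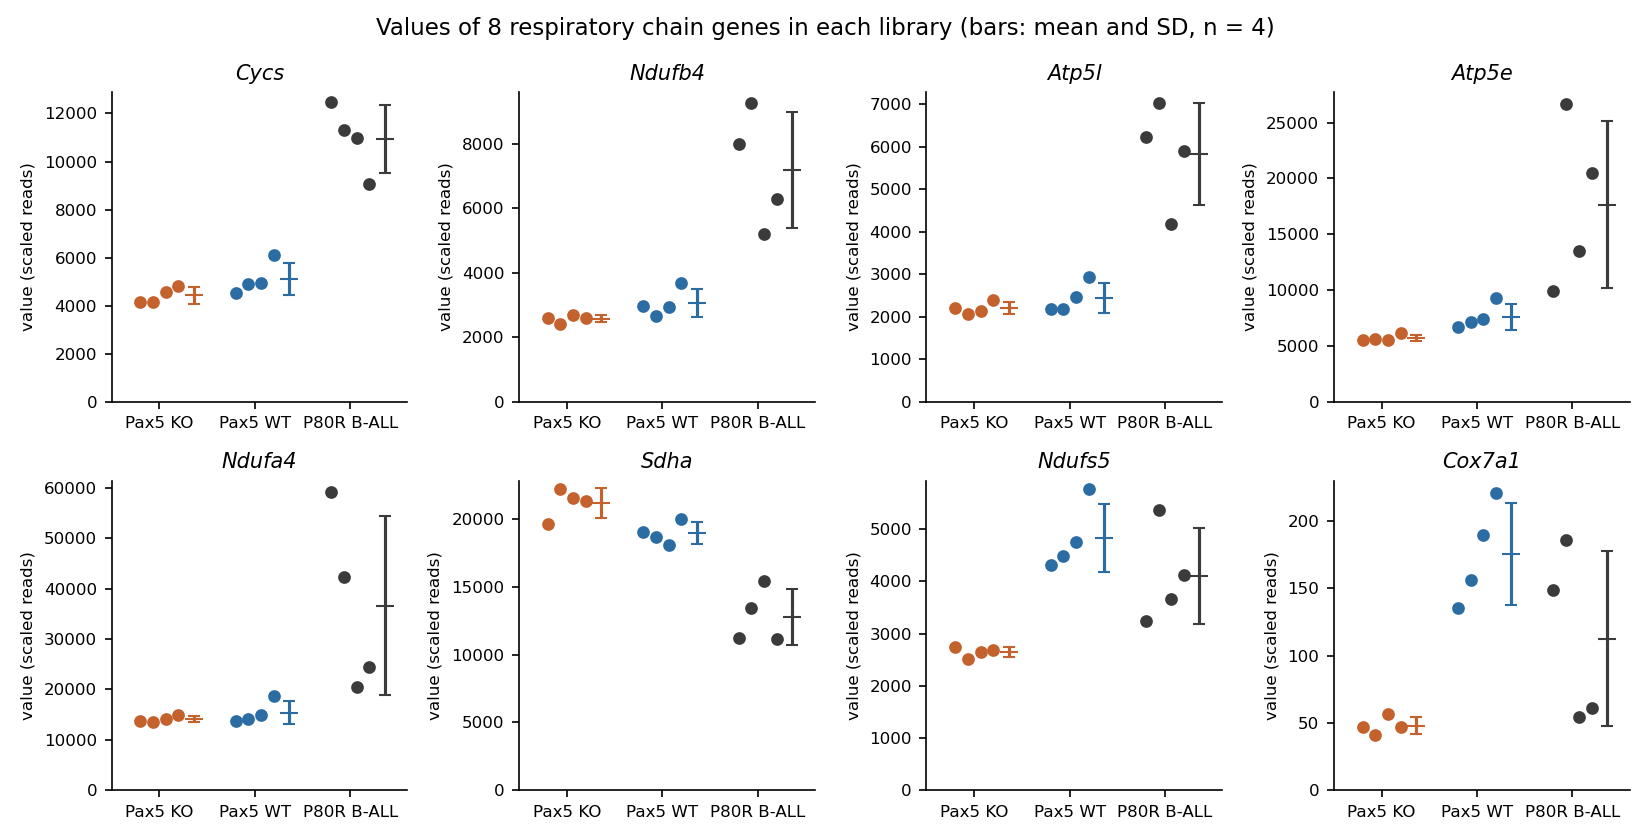
Values (read counts scaled by the authors) of 8 respiratory chain genes in each library, with group mean and SD (n = 4) to the right of the points. The leukaemias lie above both fetal liver groups for Cycs, Ndufb4, Atp5l, Atp5e and Ndufa4 and below both for Sdha, while Ndufs5 and Cox7a1 are lowest in Pax5 KO without overlap with Pax5 WT.

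Complex IV, cytochrome c oxidase, is built around mitochondrially encoded catalytic subunits that are not covered here, and its 13 nuclear genes include Ndufa4, which is now counted as a subunit of this complex. In Pax5 KO, 8 of 13 were lower than in Pax5 WT and none was higher. After correction for length, 6 were lower and 2 higher (median -0.09). In P80R B-ALL, 6 were higher than in Pax5 WT and 9 higher than in Pax5 KO, with medians of 0.52 and 0.73, and none was lower. The length-corrected counts were 3 higher and 4 lower against Pax5 WT, and 2 higher and 2 lower against Pax5 KO. Cox4i1, the ubiquitous form of subunit 4, was at 38606, 42543, 24837 and 35442 in the recipients, 17889.5 to 23808 in Pax5 WT and 16218 to 18032 in Pax5 KO. All 4 leukaemias were above both fetal liver groups, with differences of 0.82 ± 0.18 and 1.04 ± 0.17 (limma, adjusted p = 0.0069 and 0.0022, length-corrected 0.43 and 0.52). Ndufa4 was at 59185, 42392, 20463 and 24484 in recipients 1300, 1301, 1302 and 1308, against 13660.4 to 18789.7 in Pax5 WT and 13478 to 14981 in Pax5 KO. Its log2 differences of 1.13 ± 0.31 and 1.25 ± 0.30 passed the threshold (limma, adjusted p = 0.016 and 0.012), and they rested most on recipients 1300 and 1301. Corrected for length, the difference from Pax5 KO of 0.67 was not called (adjusted p = 0.072).

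Cox5a, a matrix-side subunit, set Pax5 KO apart: it was at 4826, 4872, 5069 and 5206 in Pax5 KO, 6724, 7051, 7086 and 8838 in Pax5 WT and 5899, 7948, 5611 and 7397 in the recipients. The difference of Pax5 KO from Pax5 WT was -0.56 ± 0.08 (limma, adjusted p = 6.5e-05). Against Pax5 KO, P80R B-ALL was higher by 0.41 ± 0.14 (adjusted p = 0.044), and the length-corrected value of -0.15 was not called. Cox5b was lower in Pax5 KO (-0.37 ± 0.07, limma, adjusted p = 0.00065), as was Cox6a1 (-0.31 ± 0.08, adjusted p = 0.0064), and neither was called in the leukaemia comparisons. Corrected for length, however, Cox6a1 was lower in P80R B-ALL than in Pax5 WT (-0.51, limma, adjusted p = 0.0047) and Pax5 KO (-0.36, adjusted p = 0.025). Cox7c was higher in P80R B-ALL than in both other groups (0.99 and 1.00, limma, adjusted p = 0.0067 and 0.0068). Its length-corrected difference from Pax5 KO, 0.39, was not called (adjusted p = 0.058). Cox6b1, the ubiquitous form of subunit 6b, was at 22718, 27813, 16467 and 19957 in the recipients against 12919 to 17489 in Pax5 WT (0.52 ± 0.18, adjusted p = 0.042), and 0.09 was not called after correction. Cox8a was called in none of the comparisons.

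Several complex IV subunits have tissue-specific paralogues. Cox7a1, the heart and muscle form of subunit 7a, was the lowest of the 80 genes per base of transcript in Pax5 KO and P80R B-ALL, and it had the largest difference between the fetal liver groups. It was at 47.2, 41.1, 56.6 and 47 in Pax5 KO and at 135, 156, 189.8 and 221 in Pax5 WT, with no overlap (-1.83 ± 0.20, limma, adjusted p = 7.9e-06). In recipients 1300, 1301, 1302 and 1308 it was at 149, 186, 54.6 and 60.9, so that 2 leukaemias lay in the Pax5 WT range and 2 near the Pax5 KO range. The ubiquitous form Cox7a2 was far more abundant, at 7413 to 8404 in Pax5 KO and 8971 to 11947 in Pax5 WT, and at 10423 to 20449 in the leukaemias. Cox7a2l, a related protein that takes part in joining complexes III and IV, was at 5237, 6231, 5128 and 5533 in the recipients, 3774, 3698, 3432 and 4088 in Pax5 WT and 2631, 2755, 2752 and 2859 in Pax5 KO. The 3 groups did not overlap, with differences of -0.44 ± 0.06 for Pax5 KO against Pax5 WT, 0.56 ± 0.12 for P80R B-ALL against Pax5 WT and 1.00 ± 0.11 against Pax5 KO (limma, adjusted p = 7.5e-05, 0.0064 and 0.00046). The length-corrected difference from Pax5 WT was 0.30 (adjusted p = 0.051).

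Cox6a2, the muscle form of subunit 6a that the name rule leaves out, was at 19.7, 164, 114 and 23684 in recipients 1300, 1301, 1302 and 1308, 659 to 758 in Pax5 KO and 26 to 71.4 in Pax5 WT. The value of recipient 1308 exceeded that of its ubiquitous counterpart Cox6a1 in the same library (18375). The same library had a summed value of 230542 for 6 plasmacytoid dendritic cell markers, against 13757 to 20306 in the other 3 leukaemias, and the part of such cells was not tested. Cox6a2 was higher in Pax5 KO than Pax5 WT (3.94 ± 0.24, limma, adjusted p = 3.9e-08). In that comparison 4 of the 6 markers were higher and 2 lower (median log2 difference 5.51). Siglech was at 1166 to 1224 in Pax5 KO and 0 in every Pax5 WT library. The 2 lower were Irf8, at 3646 to 4317.5 in Pax5 KO and 7590.5 to 8632 in Pax5 WT, and Tcf4 (5197 to 5883 and 7059 to 7958). The summed value of the 6 markers was 19367 to 20844 in Pax5 KO and 16066 to 17683 in Pax5 WT. The part of such cells in the difference of Cox6a2 was likewise not tested. The paralogues below the minimum, Cox4i2 (the hypoxia-linked form of subunit 4) and Cox6b2 (the testis form of subunit 6b), had their highest values in recipient 1308, at 98.3 and 113. Ndufa4l2, a hypoxia-linked relative of Ndufa4, was at 2.48 to 7.89 in P80R B-ALL and at most 3.44 in the fetal liver libraries. Cox8b reached 20.8 in recipient 1308, and Cox8c, Cox7b2 and a second row named Atp5o were at 0 in all libraries.

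Complex V, the ATP synthase, had 12 of 17 genes lower in Pax5 KO than in Pax5 WT and 1 higher, with a median of -0.29. After correction for length, 11 were lower and 1 higher (median -0.17). In P80R B-ALL, 5 were higher and 1 lower than in Pax5 WT (median 0.29), and 11 were higher than in Pax5 KO (median 0.60). The length-corrected counts were 2 higher and 4 lower against Pax5 WT, and 5 higher and 2 lower against Pax5 KO. The genes of the catalytic head were mostly not called. Atp5b, the catalytic beta subunit of the F1 head, was at 53537, 93556, 68387 and 57092 in the recipients, 79846 to 90970.5 in Pax5 WT and 74198 to 81907 in Pax5 KO, and the groups overlapped in all 3 comparisons. Atp5a1, the alpha subunit, was likewise called in none, with differences of -0.09, -0.29 and -0.19. Atp5c1, the gamma subunit that turns inside the head, was at 22929.8, 34550.5, 21614 and 26454 in the recipients, 19061 to 22739 in Pax5 WT and 18227 to 19660.2 in Pax5 KO, and its difference from Pax5 KO was 0.46 ± 0.16 (limma, adjusted p = 0.045, length-corrected 0.07 and not called). Of the 7 genes of the stalk and membrane ring, all 7 were lower in Pax5 KO than in Pax5 WT, by 0.21 to 0.47 on the log2 scale, and 5 were higher in P80R B-ALL than in Pax5 KO. After correction for length, Atp5f1 and Atp5h were still called in the latter comparison, and Atp5g2 (-0.22), Atp5j (0.17) and Atp5o (0.12) were not.

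Atp5e, the epsilon subunit of the central stalk of F1, was at 9908, 26676, 13479 and 20520.1 in recipients 1300, 1301, 1302 and 1308, 6651, 7093, 7372 and 9252 in Pax5 WT and 5536, 5633, 5517 and 6133 in Pax5 KO. All leukaemias were above both fetal liver groups, and their values spread over a wide range. The difference from Pax5 KO, 1.53 ± 0.28, was the largest of all 80 genes (limma, adjusted p = 0.0036, length-corrected 0.86). Against Pax5 WT it was 1.13 ± 0.28 (adjusted p = 0.011), and the length-corrected 0.63 was not called. Atp5l, a small membrane subunit that takes part in joining ATP synthase dimers, was at 6225, 7043, 4188 and 5904 in the recipients, 2182, 2174, 2462 and 2939 in Pax5 WT and 2212, 2075, 2125 and 2405 in Pax5 KO. It had the largest difference of the 80 genes against Pax5 WT (1.24 ± 0.18, limma, adjusted p = 0.00079, length-corrected 0.80), with no overlap.

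Atp5mpl, another small membrane subunit, had the largest difference of complex V between the fetal liver groups. It was at 5629, 5282, 5567 and 5925 in Pax5 KO and 8284, 8781, 8941 and 11309 in Pax5 WT (-0.73 ± 0.09, limma, adjusted p = 1.6e-05). Atp5k, a further small membrane subunit, was at 3597 to 4047 in Pax5 KO and 5000.2 to 6624 in Pax5 WT (-0.56 ± 0.08, adjusted p = 9e-05). Atp5d, the delta subunit of F1, was lower in P80R B-ALL than in Pax5 WT, at 4969, 6685, 6322 and 7979 against 7855, 8907, 8717 and 10031. Recipient 1308 overlapped the lowest Pax5 WT library, and the difference of -0.47 ± 0.16 was near the threshold (adjusted p = 0.045), with -0.79 after correction for length. The 3 genes Atp5g1, Atp5g2 and Atp5g3 encode the same mature c subunit of the ring, and all 3 were lower in Pax5 KO (-0.22, -0.42 and -0.30, limma, adjusted p = 0.029, 0.00029 and 0.0053), although Atp5g1 was not after correction for length (-0.06, adjusted p = 0.26). Atp5g3 held most of their signal, at 22331 to 24597 in Pax5 KO and 25989 to 33778 in Pax5 WT. Atp5s, a coupling factor of low abundance, was the gene of complex V that was higher in Pax5 KO (724 to 838 against 462 to 727 in Pax5 WT, 0.44 ± 0.13, limma, adjusted p = 0.0094). It was also higher in P80R B-ALL than in Pax5 WT (0.69 ± 0.21, adjusted p = 0.026).

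Set against each other per kilobase of transcript, the complexes differed in level. The median value per kilobase in Pax5 WT was 6325 for complex I, 9115 for complex II, 10914 for complex III, 18217 for complex IV and 15367 for complex V. The order was the same in Pax5 KO (4966, 9389, 10581, 17977 and 11543), and in P80R B-ALL complexes I and II were at 7300.4 and 8024, below 16783, 22917 and 18882 for complexes III, IV and V. Atp5b had the highest value per kilobase of the 80 genes in both fetal liver groups, at 43599 in Pax5 WT and 41247 in Pax5 KO. In P80R B-ALL the highest was Ndufa4 at 60050, and Atp5b, at 35565, was the seventh. These are levels and not differences, and no test was made between genes.

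Single libraries stood apart over most of the 80 genes. Among the leukaemias, recipient 1301 had the highest value for 62 of the 80 genes and the lowest for none, and recipient 1302 had the lowest for 57. Which library was highest or lowest was not counted over all genes tested, here or for Pax5 WT. The median over the 80 genes of the log2 deviation from the Pax5 WT mean was 0.35, 0.69, 0.03 and 0.36 in recipients 1300, 1301, 1302 and 1308, so recipient 1302 was close to the Pax5 WT mean. Over all genes tested the same medians were between -0.03 and 0.06. Cycs differed from this order, with deviations of 1.29, 1.15, 1.11 and 0.83. Recipients 1301 and 1302, at the ends of the range, had the lowest erythroid sums of the 4. Among the Pax5 WT libraries, library 4 had the highest value for all 80 genes, with a median deviation of 0.24 against -0.14 to -0.04 in the other 3. Over all genes tested, 5798 of 12200 lay above the Pax5 WT mean in library 4. The Pax5 KO libraries lay between -0.32 and -0.21. The median SD of log2 values was 0.34 over the 80 genes in P80R B-ALL, 0.07 in Pax5 KO and 0.17 in Pax5 WT, next to 0.47, 0.11 and 0.16 over all genes tested. Without recipient 1301 the median difference of P80R B-ALL from Pax5 WT was 0.22 with 20 genes higher and 5 lower, and without recipient 1302 it was 0.47 with 39 higher. Leaving out Pax5 WT library 1, 2 or 3 gave 13 higher genes in each case, with medians of 0.31 to 0.34.

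**Figure D4:**
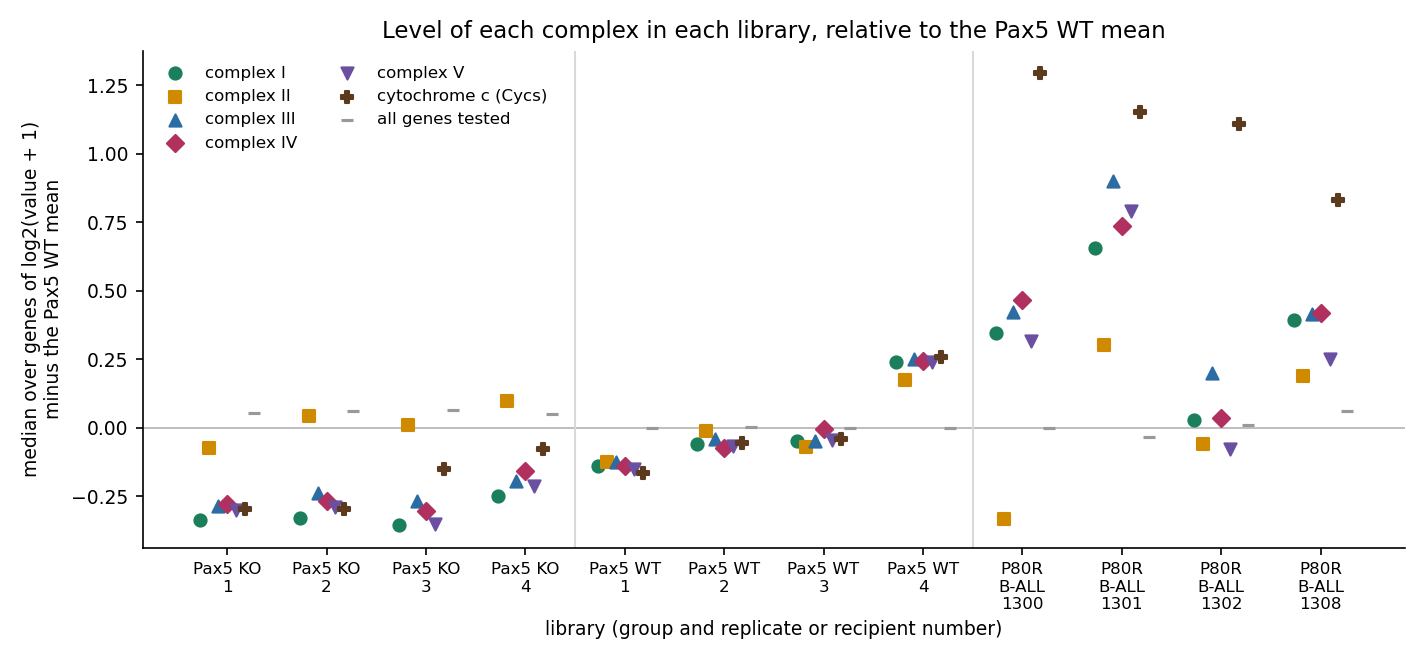
Median over the genes of each complex of log2(value + 1) minus the Pax5 WT mean, in each of the 12 libraries, with the median of all genes tested as dashes. In the leukaemias complexes I, III, IV and V are highest in recipient 1301 and lowest in recipient 1302, complex II lies below them in each recipient except at 1302, where complex V is lowest, and Cycs lies above them in all 4.

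The calls of some genes described above ended when single libraries were left out, while their differences kept direction. In P80R B-ALL against Pax5 KO these were Ndufv2 (without any 1 of the 4 Pax5 KO libraries, 0.69 to 0.72, highest limma adjusted p = 0.061), Ndufs1 (without Pax5 KO 1, 2 or 3, -0.52 to -0.49, adjusted p up to 0.064) and Ndufs5 (without Pax5 KO 2 or 3, 0.58 to 0.61, adjusted p up to 0.056). Cox5a was not called without recipient 1301 or 1308 or without any 1 Pax5 KO library (0.33 to 0.43, limma adjusted p up to 0.11), and Atp5c1 not without recipient 1308 or any 1 Pax5 KO library (0.44 to 0.47, adjusted p up to 0.11). Against Pax5 WT, Atp5d was called in no fit without 1 library except that without recipient 1308 (-0.52 to -0.35 in the other 7, limma adjusted p up to 0.12). Atp5s and Cox6b1 were not called without recipient 1300 or 1301 or without Pax5 WT 1, 2 or 3 (0.57 to 0.70 and 0.39 to 0.52, adjusted p up to 0.083 and 0.12), and Ndufa10 not without Pax5 WT 2 or 4 (-0.48 to -0.43, adjusted p up to 0.057). In Pax5 KO against Pax5 WT the small differences of Ndufv3 and Sdha were not called in 6 and 5 of the 8 fits without 1 library (limma adjusted p up to 0.12 and 0.079). Those of Uqcr10, Ndufb4, Cox4i1, Atp5g1, Uqcrc2 and Ndufs7 were not called in 5, 3, 3, 3, 2 and 1 of them, and for Uqcr10, Ndufb4 and Cox4i1 the length-corrected differences of -0.08, -0.12 and -0.09 were not called either. The calls of Cycs, Sdha, Ndufb4, Atp5e, Atp5l and Ndufa4 in the leukaemias were past the threshold in every such fit.

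Removing the trend with length left some genes called and others not. Of the 26 genes higher in P80R B-ALL than in Pax5 WT, 11 were still called higher: Cycs, Ndufb4, Atp5l, Ndufs4, Ndufa4, Ndufa7, Atp5s, Cox7c, Ndufb8, Cox4i1 and Uqcr10. All 3 genes lower than in Pax5 WT (Atp5d, Sdha and Ndufa10) were still called. Ndufs5, Ndufs7, Cox5a, Cox6a1, Cox7a1, Cox8a, Atp5g1, Atp5g2 and Atp5g3 were called lower than in Pax5 WT only after correction (-1.32 to -0.32). Of the 50 genes higher than in Pax5 KO, 22 were still called, led by Cycs (1.53), Ndufs4 (1.04) and Ndufb4 (1.02). Of the 54 genes lower in Pax5 KO than in Pax5 WT, 45 were still called, led by Cox7a1 (-1.67), Ndufs5 (-0.70) and Ndufs8 (-0.56). Across the 80 genes Spearman's rho between difference and length was 0.39 for Pax5 KO against Pax5 WT, and for P80R B-ALL it was -0.35 with Pax5 WT and -0.51 with Pax5 KO as the other group; across 12109 other genes it was 0.13, -0.19 and -0.31. These are correlations across genes that share the same libraries, given as descriptions.

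**Figure D5:**
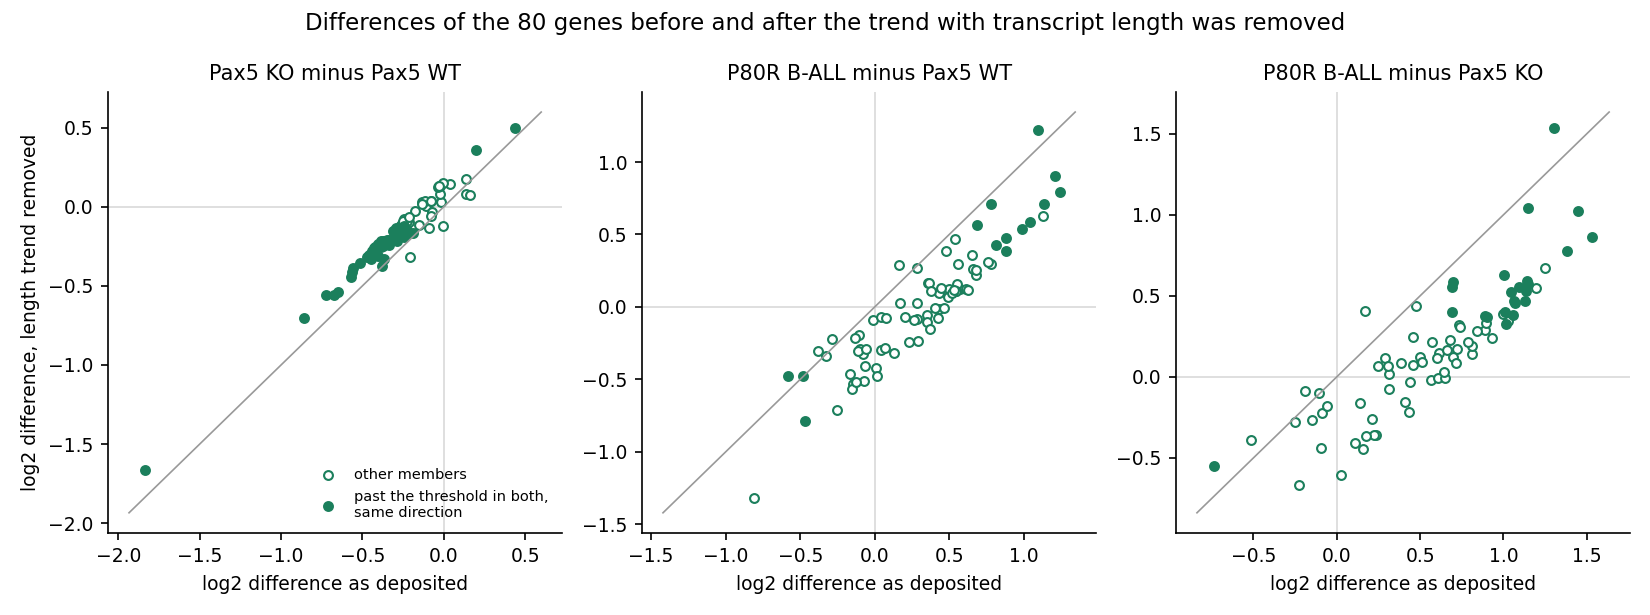
Log2 difference of each of the 80 genes with the deposited values (x axis) and after the trend with transcript length was removed from each library (y axis), in the 3 comparisons; the grey diagonal marks equal values. In the leukaemia panels most points lie below the diagonal, and Cycs (1.10 and 1.22 against Pax5 WT) is 1 of 6 genes above it.

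Genes that assemble the complexes were read beside them from lists chosen with earlier results known. Their counts in this and the next paragraphs are not corrected for length. These counts stand beside the shares of all genes called: 35.7% higher and 29.1% lower in Pax5 KO against Pax5 WT, 21% and 18.9% in P80R B-ALL against Pax5 WT, and 17.6% and 20.8% against Pax5 KO. Of 17 tested assembly factors of complex I, 9 were lower and none higher in Pax5 KO than Pax5 WT, 5 were higher in P80R B-ALL than in Pax5 WT, and 9 higher than in Pax5 KO. Timmdc1, a membrane assembly factor of complex I, was at 194 to 239 in Pax5 KO and 487 to 593 in Pax5 WT (-1.37, limma, adjusted p = 6.2e-07). Ndufaf4 was higher in P80R B-ALL than in Pax5 WT (0.94, adjusted p = 0.0033), at 5143, 4822, 3462 and 3141 in the recipients against 1983 to 2369. Of 10 assembly factors of complexes II and III, 4 were lower and 1 higher in Pax5 KO, 5 were higher in P80R B-ALL than in Pax5 WT and 6 higher than in Pax5 KO. They include Uqcc2, which takes part in making cytochrome b, at 9144, 9034, 6318 and 6182 in the recipients against 2143 to 2815 in Pax5 WT (1.62, limma, adjusted p = 0.00016), and Sdhaf2, which helps put the flavin into Sdha, at 2139 to 2339.6 in Pax5 KO against 4018 to 4609.5 (-0.91, adjusted p = 1e-07). Of 18 tested assembly factors of complex IV, 7 were lower and 3 higher in Pax5 KO, 6 were higher and 1 lower in P80R B-ALL than in Pax5 WT, and 9 were higher and 2 lower than in Pax5 KO. Of 6 genes for assembly and control of complex V, the counts higher and lower were 2 and 1, 2 and 0, and 2 and 1 in the same order of comparisons. In P80R B-ALL against Pax5 WT the median log2 differences of these 4 lists were 0.40, 0.40, 0.36 and 0.45. Corrected for length they were 0.18, 0.43, 0.25 and 0.07. Against Pax5 KO the medians were 0.58, 0.89, 0.69 and 0.43, and length-corrected 0.48, 0.65, 0.23 and 0.08.

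The tricarboxylic acid cycle feeds the chain with NADH and succinate. The list of 17 genes read for it includes Pdha1, Pdhb and Dlat of pyruvate dehydrogenase and leaves out Sdha to Sdhd. Of the 17 genes, 6 were higher, a share near that of all genes, and 1 lower in Pax5 KO than in Pax5 WT. In P80R B-ALL 5 were lower than in Pax5 WT and 6 lower than in Pax5 KO, with none higher. Idh2, mitochondrial isocitrate dehydrogenase, was highest in Pax5 KO, at 20929 to 21728 against 13609 to 15232 in Pax5 WT (0.60, adjusted p = 8.4e-07). The median log2 difference of the 17 genes from Pax5 WT was 0.00 in Pax5 KO and -0.25 in P80R B-ALL (length-corrected -0.05 and -0.26).

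Among 7 tested genes tied to supercomplexes or to the hypoxia-inducible factors, 2 were higher and 4 lower in Pax5 KO, 2 were higher and 2 lower in P80R B-ALL than in Pax5 WT, and 2 were higher and 1 lower than in Pax5 KO. Bnip3, a mitophagy receptor known as a hypoxia target, was at 1371, 1126, 1053 and 1618 in the recipients, 1014 to 1072 in Pax5 KO and 4114 to 4775 in Pax5 WT, lower than Pax5 WT in both (-1.78 and -2.05, limma, adjusted p = 6.7e-05 and 9.6e-11). Lonp1, a matrix protease, was lower in P80R B-ALL than in both groups (-0.99 and -1.04, adjusted p = 0.0036 and 0.004). Of 20 regulators of mitochondrial transcription and biogenesis, 6 were higher and 5 lower in Pax5 KO, 2 were higher and 5 lower in P80R B-ALL than in Pax5 WT, and 4 were higher and 4 lower than in Pax5 KO. Nrf1, the factor whose motif was searched above, was at 2305 to 2473 in Pax5 KO and 3361 to 4056 in Pax5 WT, and at 2227, 2529, 2605 and 2203 in the leukaemias, lower than in Pax5 WT in both (-0.65 and -0.68, limma, adjusted p = 5.5e-06 and 0.003). Ppargc1a, the coactivator PGC-1alpha that drives mitochondrial biogenesis, was at 0 in all 4 recipients, 7.71 to 18.8 in Pax5 KO and 42.1 to 57 in Pax5 WT, lower in P80R B-ALL than in both (limma, adjusted p = 0.00012 and 0.0022). Esrra, the nuclear receptor it works with, was higher in P80R B-ALL than in Pax5 WT (1.29, adjusted p = 0.0024), at 363, 422, 401 and 524 against 142 to 216. Myc was higher in Pax5 KO than Pax5 WT (0.86, adjusted p = 1.3e-08), at 15360.0 to 16226 against 8429 to 8882.

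Of 24 genes for import and folding of mitochondrial proteins, 14 were lower and 4 higher in Pax5 KO, 5 were higher and 4 lower in P80R B-ALL than in Pax5 WT, and 11 were higher and 2 lower than in Pax5 KO. The small translocase genes Timm10 and Timm8b were higher than in Pax5 WT (1.17 and 1.08, limma, adjusted p = 0.0018 and 0.0025), and the chaperonin Hspd1 was lower (-0.59, adjusted p = 0.033). Of 14 genes of the outer membrane, carriers and mitochondrial mass, 1 was higher and 4 lower in Pax5 KO, 1 higher and 2 lower in P80R B-ALL than in Pax5 WT, and 1 higher and 3 lower than in Pax5 KO. Opa1, which shapes the inner membrane, was at 1817, 2267, 2758 and 1543 in the recipients and 3493 to 4349 in Pax5 WT (-0.92, adjusted p = 0.0043). Of 13 genes of coenzyme Q synthesis, 4 were higher and 2 lower in Pax5 KO, 5 higher and 2 lower in P80R B-ALL than in Pax5 WT, and 2 higher than in Pax5 KO. Coq7 was at 2958 to 3730.4 in Pax5 WT and at 1147 to 1197 in Pax5 KO (-1.48, limma, adjusted p = 5.8e-09), and at 1109.7, 1364, 930.4 and 592 in the recipients. Of 9 mitochondrial antioxidant genes, 2 were higher and 3 lower in Pax5 KO, and 4 were higher and 1 lower in P80R B-ALL in both comparisons. Gpx1 was at 91814, 77532, 56931 and 159100.0 in the recipients against 26457 to 37076 in Pax5 WT (1.56, adjusted p = 0.0021), and this gene is also strongly expressed by erythroid cells, whose marker sums are given above; their part in this value was not tested. The 13 mitochondrially encoded subunits were listed at 0 in all libraries, so the mitochondrial part of complexes I, III, IV and V is not analysed here.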

How the data were processed

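RNA was sequenced from 12 libraries in 3 groups of 4 (Pax5 KO, Pax5 WT and P80R B-ALL). Per the submitters' processing notes, the tools were fastp, STAR 2.7.8a and featureCounts on the mouse build mm39. The annotation, the strand setting and the treatment of reads with several matches were not stated in the sources used here, and the library kit does not mark strand. The deposited values are a signal per gene: read counts that had been divided by 1 factor per library. All values (100%, tolerance 0.001) came out as whole multiples of their library's unit, which is the value of 1 read (0.722 to 1.38). Whole reads were recovered by dividing by this unit. Fewer genes per library had exactly 1 read (191 to 267) than exactly 2 (406 to 566).

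Gene names and transcript lengths came from GENCODE M21 (21780 of 21885 IDs matched, 105 did not), which is another build than that of the files, so no coordinate was carried over. Promoter windows came from RefSeq GRCm38.p6. The 12200 genes that reached a value of 10 in 4 or more libraries were tested on log2(value + 1) with limma 3.58.1 (R 4.3.3, trend and robust, two-sided), with the 8 libraries of the 2 groups compared and p-values adjusted by Benjamini and Hochberg over all genes tested, at 0.05. Differences are on this scale, which understates changes of low genes. On simulated data with unequal spread between groups, as in the leukaemia comparisons, false calls exceeded the nominal share. Alternatives were edgeR 4.0.16 and DESeq2 1.42.0 on the recovered reads, TMM scaling, a fit on all 12 libraries, group weights, a pseudocount of 10, no filter or a filter at 50, a member minimum of 10, leaving out libraries, the replicate number as a block, and removal of each library's trend with length.

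The genes and all gene lists were chosen with earlier results of these data known. Genes named with values are the core subunits, paralogue pairs, per complex and comparison up to 2 called genes per direction with the largest difference, and per list up to 2 per direction with the smallest adjusted p. Ndufs4 and Ndufb1-ps fall outside that rule and were chosen after their values were seen. Values of a few genes that the rule takes are not reported here.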

Additional observations from a re-analysis of the deposited data

Results flagged for a closer look

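In groups of 4 libraries, a value was singled out where its gap to the nearest other library took a larger part of the group's whole range than Dixon's 95% critical value allows. Of 144 groups tested for the 48 named respiratory chain genes, 7 held such a value. Chance gives about 1 in 20, and the share found was near that. The values below are therefore listed as descriptions only.

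Recipient 1301 held 3 of them. Ndufv2, a core subunit of complex I, was at 26643 there against 14648 to 14939 in the other leukaemias. Sdhd, a membrane anchor of complex II, was at 30277 against 15148 to 16224, and Cyc1, cytochrome c1 of complex III, was at 10791 against 6373 to 7017. These 3 genes belong to 3 complexes, and recipient 1301 also had the highest value of the 4 for 62 of the 80 genes. Library 4 of Pax5 WT held 2: Ndufv2 at 13610 (others 11115 to 11437) and Atp5c1, the gamma subunit of ATP synthase, at 22739 (others 19061 to 19260). Library 4 of Pax5 KO held 2: Ndufs8 at 4778 (others 4290.5 to 4337) and Ndufv2 at 11073 (others 10414 to 10458). Ndufv2 was singled out in 1 library of each of the 3 groups, within a total near that of chance.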

How the results depend on the processing

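Removing the trend with transcript length, or with the union exon length in its place, moved these counts: 8 or 14 genes higher in Pax5 KO against Pax5 WT, 11 or 10 higher and 12 or 15 lower in P80R B-ALL against Pax5 WT (median 0.0101 or 0.0041), and 22 or 17 higher and 7 or 8 lower against Pax5 KO (median 0.17 or 0.0505). The fit on all 12 libraries called 0 higher (1 at an unadjusted p under 0.05, and 2 with edgeR or DESeq2 on the pair) and 15 lower in Pax5 KO against Pax5 WT, and 5 lower in P80R B-ALL against Pax5 WT. Without recipients 1300 and 1308, 17 were higher against Pax5 WT, and edgeR called 1 lower gene against Pax5 KO.

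Leaving out 1 library gave 1 to 5 higher and 46 to 57 lower in Pax5 KO against Pax5 WT (median -0.31 to -0.19), with 1 higher without Pax5 KO 2, Pax5 WT 2 or Pax5 WT 3 and 5 without Pax5 WT 4. P80R B-ALL against Pax5 WT gave 13 to 39 higher and 1 to 5 lower (median 0.22 to 0.47), with 13 higher without Pax5 WT 1, 2 or 3, 5 lower without recipient 1301 and 1 lower without Pax5 WT 2 or 4. P80R B-ALL against Pax5 KO gave 37 to 54 higher and 1 to 3 lower (median 0.52 to 0.77), with 1 lower without Pax5 KO 1, 2 or 3.

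Among the named genes, signs of those called with or without the change turned only under the length alternatives (transcript length, then union length where both turned). In Pax5 KO against Pax5 WT these were Ndufa7 (0.13, 0.26), Cox7c (0.15, 0.15) and Cox8a (0.13, 0.25), and with union length Sdhd (0.13), Uqcr10 (0.0722), Ndufa4 (0.15) and Atp5l (0.14). Against Pax5 WT, P80R B-ALL turned for Cox8a (-0.32, -0.39), Atp5g2 (-0.48, -0.46), Atp5g1 (-0.42, transcript) and Cox5b (-0.37, union). Against Pax5 KO it turned for Ndufs5 (-0.0093, -0.0434), Ndufs7 (-0.41, -0.49), Cox5a (-0.15, -0.34), Cox6a1 (-0.36, -0.55), Cox8a (-0.45, -0.64) and Atp5g2 (-0.22, -0.27), with transcript length for Ndufv3 (-0.60) and Atp5g1 (-0.36), and with union length for Cox6b1 (-0.0656) and Atp5g3 (-0.54). The cause was not tested. Of 2736 values of named genes under the alternatives, 2453 stayed on their side of the threshold and 32 turned sign as listed. Of the 2453, 90 turned sign with no call in either fit. Of the others, 165 were no longer past it and 86 were newly past it.

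The replicate number as a block gave 3 higher and 57 lower genes in Pax5 KO against Pax5 WT (median -0.26). Same-numbered libraries deviated together only weakly (r 0.00493 to 0.0616 across genes), so the numbers were not taken to pair them. No paired analysis was possible because the recipients share no number with the other groups, for the leukaemia comparisons. Each library had at least 24914250 reads, and the median SD of log2 values between leukaemias was 0.34.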
